A study of Mus musculus with 20 samples.

Results

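Cytokines given to mouse ear skin, IL-13 and IL-31, were compared directly: the 5 libraries from ears that received IL-13 against the 5 from ears that received IL-31, chosen by their labels, which is 10 of the 20 libraries of the series. The other 10 libraries, from ears given PBS or IL-4, took no part in the levels or the main test below. They were used only to mark which genes vary with the amount of muscle in a sample, and in an alternative fit of all 20 libraries. Each cytokine was given intradermally as 10 µl at 0.1 µg/µl, in PBS, to the right ear, so both groups share the needle, the vehicle and the site. Total RNA of the ear pinna was sequenced. The sources used here do not state the strain, sex or age of the mice, the time to harvest or whether any 2 libraries share an animal. P-values therefore describe only the spread between these samples, which may be technical.

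IL-13 is a type 2 cytokine made by T helper and innate lymphoid cells. It binds a receptor of Il13ra1 and Il4ra, or the decoy receptor Il13ra2, and signals through Stat6, and in skin it is known for effects on keratinocytes, fibroblasts and macrophages. IL-31 is made mainly by type 2 T cells, binds a receptor of Il31ra and Osmr, and signals chiefly through Stat3; it is best known for itch, through sensory neurons that carry the receptor. An ear pinna holds epidermis, dermis, hair follicles, cartilage, fat, vessels, nerves and strips of skeletal muscle, and each value averages these tissues, so fewer cells of a type and less RNA per cell cannot be told apart.

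Levels are log2 CPM, the log2 of counts scaled to library size, with a small offset added by the authors. Differences are IL-13 minus IL-31 on that log2 scale, with their standard errors, so a negative value means a lower mean level in IL-13. Effective library sizes were 12.89 to 13.76 M reads (M, mega) in IL-13 and 13.21 to 23.72 M in IL-31. A count of 3 reads was worth 0.126 to 0.233 CPM, and a difference in a gene under that level could not be detected. Libraries of the same group correlated at 0.947 to 0.986 across genes. Markers of several parts of the ear were present in all 10 libraries. The keratinocyte gene Krt5 lay between 13.30 and 13.78, the cartilage gene Acan between 6.09 and 7.43, and the muscle myosin Myh1 between 8.60 and 11.97. The satellite cell gene Pax7 was at the lowest value of the table in 1 library, and Myf5, Matn1 and Trac were not analysed here. The hair follicle keratins Krt25, Krt27 and Krt71 reached at most 0.71, 0.69 and 0.22. They were at the lowest value of the table in 1, 1 and 4 libraries.

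Of 15601 tested genes, 0 passed a Benjamini-Hochberg adjusted p of 0.05 in limma (0%), and the smallest adjusted p was 0.213. At an unadjusted p under 0.05 there were 1571 genes (10.1%), of which 492 had the higher mean in IL-13 (3.15%) and 1079 in IL-31 (6.92%). After quantile normalization the same split was 823 and 914, and after median centring 736 and 950. All 5 values of one group lay above all 5 of the other for 196 genes (1.26%), 91 higher in IL-13 (0.583%) and 105 higher in IL-31 (0.673%). A difference of at least 2-fold was more frequent on the IL-31 side, with 339 genes (2.17%) against 48 on the IL-13 side (0.308%). With the PBS and IL-4 libraries added to the fit, which then share the estimate of the spread, 0 genes passed (0%) and 1139 had an unadjusted p under 0.05.

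Without IL-31 replicate 3 limma called 390 genes (2.5%), 379 higher in IL-31 (2.43%) and 11 higher in IL-13 (0.0705%). Leaving out any of the other 9 libraries gave 0 calls. A fit of all 10 libraries that carried each library's neutrophil score, described further on, as a covariate called 316 genes (2.03%), 297 higher in IL-31 (1.9%) and 19 higher in IL-13 (0.122%). Of the 390 genes, 256 were among the 316, which is 65.6% of the first set and 81% of the second, each in the same direction. Both fits use the same other 9 libraries, and IL-31 replicate 3 had the highest neutrophil score of its group (2.47). The shared calls are therefore not an independent check. The comparison of all 10 libraries without a covariate, in which no gene passed, remains the main one.

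**Figure D1:**
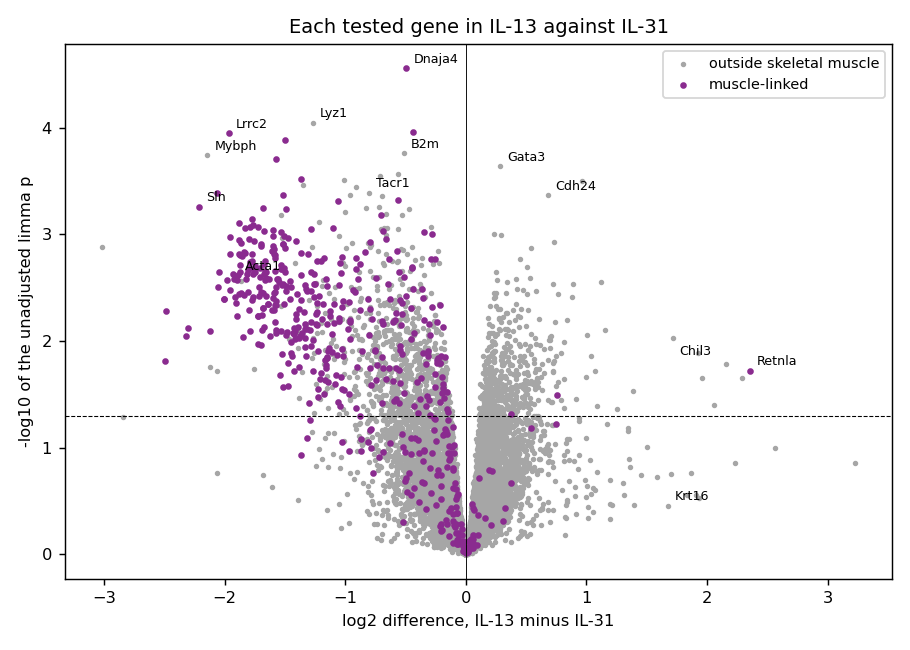
Each point is 1 of the 15601 tested genes; the horizontal axis is the log2 difference, IL-13 minus IL-31, and the vertical axis is minus log10 of the unadjusted limma p, with a dashed line at 0.05. Muscle-linked genes (purple) lie mostly on the IL-31 side, and no gene of either colour passed the adjusted threshold.

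Skeletal muscle lists had the largest median differences of the 40 gene lists. Of 116 tested members of 4 muscle lists (filaments, calcium handling, energy metabolism, neuromuscular junction with satellite cells), 112 had the higher mean in IL-31, and 98 of these had an unadjusted p under 0.05, against the 6.92% of all tested genes given above; only 1 member was on the IL-13 side at that level. Their median difference was -1.53, beside 0.01 over all tested genes. No member passed with all 10 libraries, and 82 of the 116 were called higher in IL-31 without IL-31 replicate 3, with a median of -1.88. Summed over the lists, the members made up 0.528 to 1.19% of all CPM in the IL-13 libraries and 0.707 to 2.31% in the IL-31 libraries. Some members at high levels, such as Ldha (r = 0.155) and Lrp4 (r = 0.239), followed the mean of the lists only weakly in the PBS and IL-4 libraries. These shares are therefore not of muscle alone.

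**Figure D2:**
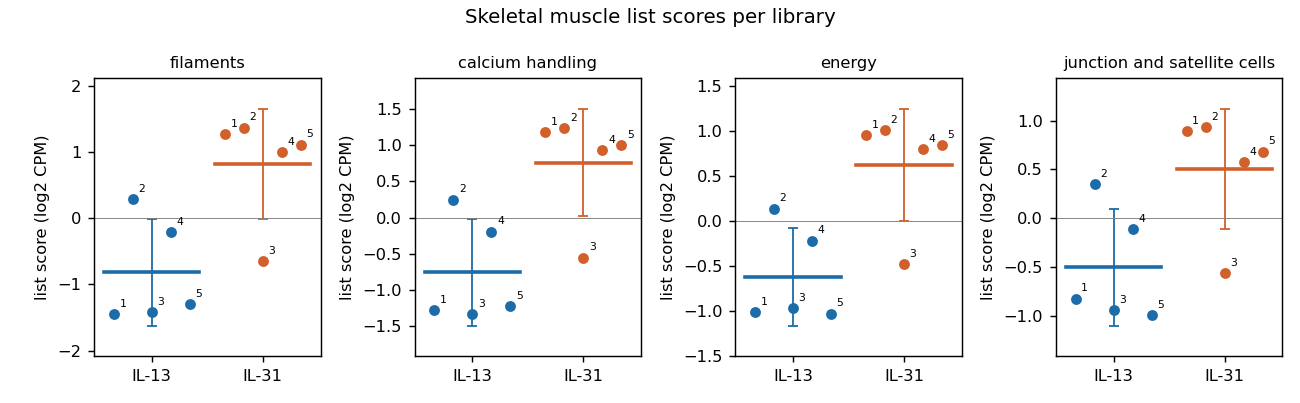
Scores of the 4 muscle lists for each library, where a score is the mean over the list's tested genes of log2 CPM centred per gene; numbers are replicate numbers, lines the group means and bars the SD of 5 libraries. IL-31 replicate 3 lies below the other 4 IL-31 libraries and within the range of the IL-13 libraries in each panel.

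The score over the 4 lists was -1.18, 0.26, -1.20, -0.19 and -1.16 in IL-13 replicates 1 to 5, and 1.10, 1.17, -0.58, 0.84 and 0.93 in IL-31 replicates 1 to 5. The other 4 IL-31 libraries lay above all IL-13 libraries, while replicate 3 of IL-31 lay below IL-13 replicates 2 and 4. Muscle scores therefore differed within each group by more than 1 log2 unit as well as between the groups.

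Myh1, a fast myosin heavy chain, is shown here with the alpha actin Acta1 because they carry this pattern at high levels and because their promoters hold motifs of the muscle regulators MEF2 and SRF. The RefSeq windows run from 250 bases before to 50 after the annotated start on build GRCm38.p6. Capitals mark a MEF2 box in Myh1 (chr11:67199852-67200151, forward strand) and a CArG box, the SRF motif, in Acta1 (chr8:123894726-123895025, reverse strand).
Myh1: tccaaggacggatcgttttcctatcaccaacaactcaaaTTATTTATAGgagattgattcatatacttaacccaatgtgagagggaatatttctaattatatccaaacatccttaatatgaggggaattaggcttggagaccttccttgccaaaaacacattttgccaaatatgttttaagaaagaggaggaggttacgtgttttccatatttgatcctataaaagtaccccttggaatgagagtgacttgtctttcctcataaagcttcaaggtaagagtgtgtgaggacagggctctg
Acta1: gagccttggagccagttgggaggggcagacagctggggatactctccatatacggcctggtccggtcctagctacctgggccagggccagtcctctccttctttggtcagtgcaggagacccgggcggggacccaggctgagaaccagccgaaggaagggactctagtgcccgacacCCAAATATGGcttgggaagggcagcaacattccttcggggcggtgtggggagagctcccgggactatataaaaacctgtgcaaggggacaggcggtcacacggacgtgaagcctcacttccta
On either strand, a MEF2 box was found in 15 of the 84 muscle-list genes with a window (17.9%), and in 271 of the 11407 tested genes with one (2.38%). A CArG box was found in 8 of the 84 (9.52%) and in 182 of the 11407 (1.6%). The motifs can overlap, and a match is a description of the letters, not of a bound site.

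Myh1 stood at 8.6, 10.24, 8.7, 10.03 and 9.0 in the IL-13 libraries (replicates 1 to 5) and at 11.97, 11.83, 9.56, 11.28 and 11.32 in the IL-31 libraries. The groups overlapped through IL-31 replicate 3. The difference was -1.88 ± 0.46 (limma adjusted p = 0.213), and -2.29 without that library (adjusted p = 0.00949). Acta1 was at 6.61, 8.59, 6.83, 8.04 and 6.62 in IL-13 and at 9.68, 9.96, 7.6, 9.16 and 9.74 in IL-31. Its difference of -1.89 ± 0.49 became -2.29 without IL-31 replicate 3 (limma adjusted p = 0.0138). IL-31 replicate 3 was again beneath IL-13 replicates 2 and 4.

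All 41 filament genes had the higher mean in IL-31, 36 of them at an unadjusted p under 0.05, with a median difference of -1.70. All 24 calcium-handling genes were also on the IL-31 side, 23 at that level, with a median of -1.61. Among them, Atp2a1, the calcium pump of fast fibres, differed by -1.91 ± 0.53, and Ryr1, the calcium release channel, by -1.87 ± 0.48. Sarcolipin (Sln), a small inhibitor of that pump, stood at 1.95, 3.66, 1.82, 3.36 and 1.97 in IL-13 and at 5.45, 5.03, 3.27, 5.44 and 4.62 in IL-31. Its group ranges overlapped only through IL-31 replicate 3, which lay below IL-13 replicates 2 and 4.

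Energy genes leaned the same way in 22 of 24 cases, 21 of them at an unadjusted p under 0.05, with a median of -1.49; myoglobin (Mb), the oxygen store of muscle, differed by -1.57 ± 0.42. Junction and satellite cell genes were on the IL-31 side in 25 of 27 cases, 18 at that level, with a median of -1.28. Myf6, a myogenic transcription factor, was at 1.77, 2.74, 1.21, 2.37 and 1.28 in IL-13 and at 3.78, 3.78, 2.69, 3.52 and 3.08 in IL-31. Desmin (Des), the muscle intermediate filament, differed by -1.53 ± 0.39. Of the mitochondrially encoded genes, 12 of 13 had the higher mean in IL-31, 2 at that level (6.92% of all tested genes). Their median was -0.25. mt-Co1, a subunit of cytochrome oxidase, stood highest in IL-13 replicate 2, at 13.45, so its groups overlapped.

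Muscle-linked genes were defined as the 116 list members plus genes whose level followed the muscle score at r of at least 0.7 across the 10 PBS and IL-4 libraries, after centring each group. They numbered 513, and 367 (71.5%) were higher in IL-31 at an unadjusted p under 0.05, against 3 (0.585%) higher in IL-13. For 19 (3.7%) the groups did not overlap, each time with IL-31 higher, and for 0 (0%) with IL-13 higher. Without IL-31 replicate 3, 271 (52.8%) were called higher in IL-31 and 0 (0%) higher in IL-13. The gene of smallest p in the whole comparison was of this kind: Dnaja4, a co-chaperone of Hsp70, at 5.7, 5.82, 5.81, 5.78 and 5.69 in IL-13 and at 6.42, 6.33, 6.06, 6.3 and 6.14 in IL-31. Every IL-31 library exceeded every IL-13 library, by a difference of -0.49 ± 0.07 (limma adjusted p = 0.213; 0.00905 without IL-31 replicate 3). Hspb8, a small heat shock protein of the chaperone-assisted autophagy of muscle, also showed no overlap (-0.44 ± 0.08), as did Lrrc2, a leucine-rich repeat protein (-1.97 ± 0.35). The muscle score, when used as a covariate, is taken from the same libraries and itself differs between the groups. With it limma called 0 genes, with 1653 at an unadjusted p under 0.05. The muscle lists then had a median of -0.05, but the score is the mean of these same genes. A value near 0 was therefore fixed in advance for them.

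Outside skeletal muscle 15088 genes were tested. At an unadjusted p under 0.05, 489 (3.24%) had the higher mean in IL-13 and 712 (4.72%) in IL-31. The groups did not overlap for 91 genes higher in IL-13 (0.603%) and for 86 higher in IL-31 (0.57%). Without IL-31 replicate 3, 11 of these genes were called higher in IL-13 (0.0729%) and 108 higher in IL-31 (0.716%), and with the neutrophil covariate 19 (0.126%) and 76 (0.504%). Non-overlapping genes outside muscle were thus split about evenly between the groups.

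Gata3, a transcription factor of type 2 lymphocytes that keratinocytes and hair follicles also use, had the smallest p on the IL-13 side among the genes named by rule (chr2:9857078-9890034, GRCm38, protein-coding). Its level was 7.86, 7.83, 8.0, 7.92 and 8.01 in IL-13 and 7.58, 7.68, 7.66, 7.63 and 7.65 in IL-31. The groups lay apart with a narrow spread, at 7.93 ± 0.08 and 7.64 ± 0.04 (mean ± SD, n = 5 each). The difference was small, 0.29 ± 0.06 (1.22-fold; limma adjusted p = 0.213), and it was called both without IL-31 replicate 3 (adjusted p = 0.031) and with the neutrophil covariate (adjusted p = 0.0283).

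Cdh24, a cadherin of cell junctions, stood at 3.42, 3.63, 3.22, 3.15 and 3.32 in IL-13 and at 2.41, 2.85, 2.48, 2.87 and 2.73 in IL-31. Its difference of 0.68 ± 0.14 was called with the neutrophil covariate (limma adjusted p = 0.0353) but not without IL-31 replicate 3 (0.054). Krt79, a keratin of the upper hair follicle and sebaceous duct, was at 8.82, 8.87, 8.75, 8.57 and 8.78 in IL-13 and at 8.5, 8.46, 8.43, 8.39 and 8.55 in IL-31. The lowest IL-13 library, replicate 4, was only just above the highest IL-31 library, and the difference was 0.29 ± 0.07.

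The other genes named on the IL-13 side, each without overlap, were Epb41l4b, a membrane-cytoskeleton linker (0.24 ± 0.05), Tigd3, a transposon-derived gene (0.73 ± 0.17), and Zfp711, a zinc finger protein (0.51 ± 0.13). Gpt, an alanine aminotransferase, differed by 0.25 ± 0.06, Zw10, a kinetochore protein, by 0.26 ± 0.07, and Trp73, of the p53 family, by 0.35 ± 0.09. Tmem102, a membrane protein gene, differed by 0.41 ± 0.11; it followed the muscle score inversely in the PBS and IL-4 libraries, at r = -0.83, and its difference was 0.27 with the muscle score as a covariate (limma adjusted p = 0.554). Adjusted limma p-values of these 10 genes ran from 0.213 to 0.217 with all 10 libraries.

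Lyz1, a lysozyme, had the smallest p outside muscle (chr10:117287797-117292868, protein-coding). It stood at 2.94, 2.94, 2.74, 2.64 and 3.52 in IL-13 and at 4.57, 4.65, 3.78, 3.75 and 4.38 in IL-31. All IL-31 libraries were above all IL-13 libraries, with a difference of -1.27 ± 0.22 (2.41-fold; limma adjusted p = 0.213; 0.0103 without IL-31 replicate 3 and 0.0219 with the neutrophil covariate). Lyz2, its close copy of macrophages and neutrophils, differed by -0.8 ± 0.19, with overlap. The sources used here do not say how reads were divided between such copies, so the share of each in that difference is uncertain.

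B2m, the light chain of MHC class I, was at 7.27, 7.01, 7.19, 7.18 and 6.99 in IL-13 and at 7.64, 7.48, 7.53, 7.96 and 7.58 in IL-31. No values overlapped, the difference was -0.51 ± 0.1, and it was called without IL-31 replicate 3 (limma adjusted p = 0.0187). Tacr1, the receptor for the itch and pain peptide substance P, stood at 0.93, 0.9, 0.69, 0.87 and 0.94 in IL-13 and at 1.58, 1.52, 1.56, 2.0 and 1.69 in IL-31. Again no values overlapped (-0.8 ± 0.17; limma adjusted p = 0.0409 without IL-31 replicate 3). Ptprb, an endothelial phosphatase, was at 3.75, 3.67, 3.36, 3.48 and 3.81 in IL-13 and at 4.61, 4.27, 4.0, 4.07 and 4.58 in IL-31, a difference of -0.69 ± 0.14.

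**Figure D3:**
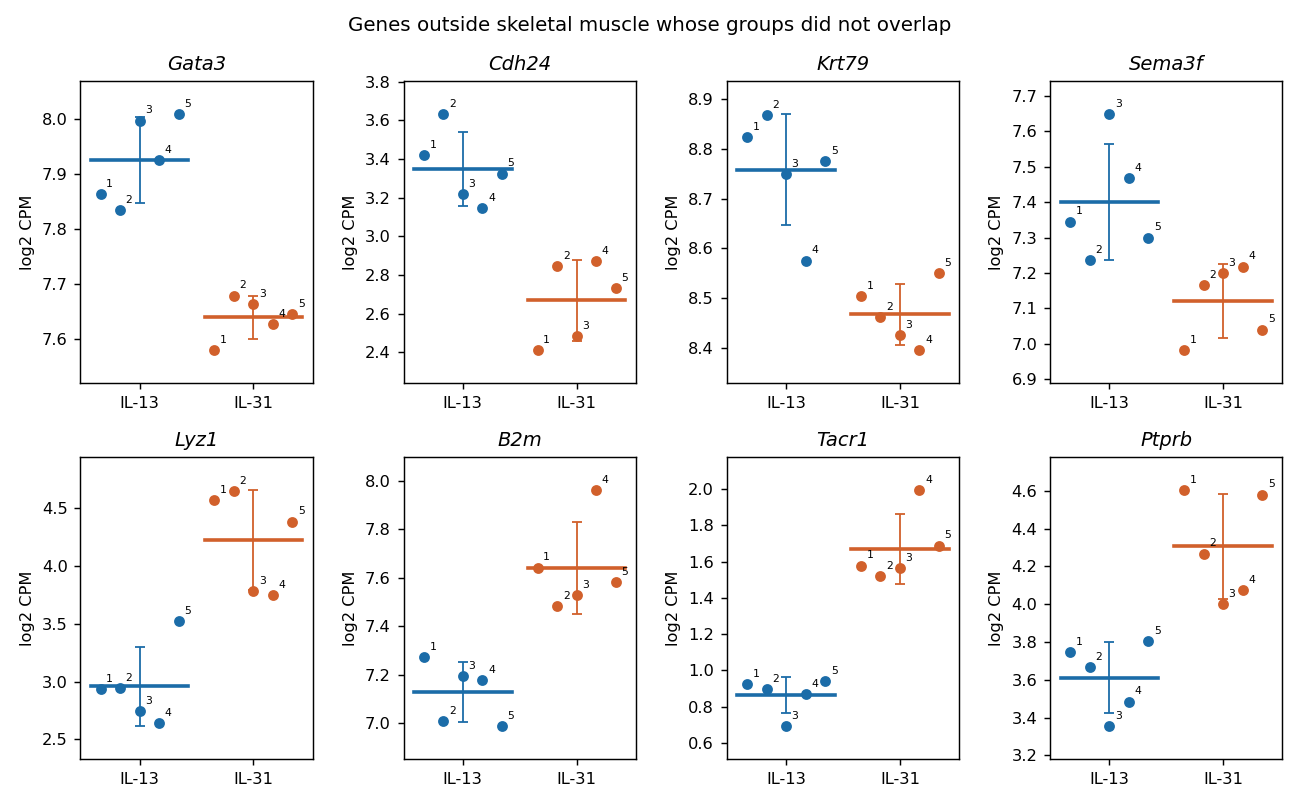
Levels in log2 CPM of 8 genes outside skeletal muscle, by library; numbers are replicate numbers, lines the group means and bars the SD of 5 libraries. In the upper panels all IL-13 libraries lie above all IL-31 libraries and in the lower panels the IL-31 libraries lie higher; these genes were picked because the groups do not overlap, and none passed the adjusted threshold with all 10 libraries.

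Further genes named on the IL-31 side, also without overlap, were Pstpip2, an actin regulator of myeloid cells (-0.56 ± 0.11), and Rps6ka2, a ribosomal S6 kinase (-1.01 ± 0.2). Lsmem1, a membrane protein, differed by -1.35 ± 0.27 and Galnt17, a glycosyltransferase, by -0.96 ± 0.2. Mybph, a myosin-binding protein, differed most, by -2.14 ± 0.4; it is a muscle gene by name, was on no list, and followed the muscle score in the PBS and IL-4 libraries at r = 0.27, under the limit used. The rule for muscle-linked genes therefore does not catch every muscle gene.

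Promoters of the genes named outside muscle were read for the letters of the STAT and interferon-response motifs, and the shown windows, from RefSeq on GRCm38.p6, are those of a gene with a match from each side of the comparison. Capitals mark TTCNNNNGAA, the spacing that STAT6 prefers, in Tmem102 (chr11:69805575-69805874, reverse strand) and GAAANNGAAA, the core of an interferon-stimulated response element, in B2m (chr2:122147437-122147736, forward strand).
Tmem102: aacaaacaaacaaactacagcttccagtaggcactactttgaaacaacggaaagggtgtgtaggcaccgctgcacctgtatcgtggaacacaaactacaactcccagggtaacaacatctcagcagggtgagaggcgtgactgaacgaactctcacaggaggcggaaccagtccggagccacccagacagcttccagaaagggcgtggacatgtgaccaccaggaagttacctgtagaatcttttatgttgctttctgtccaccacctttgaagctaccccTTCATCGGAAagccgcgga
B2m: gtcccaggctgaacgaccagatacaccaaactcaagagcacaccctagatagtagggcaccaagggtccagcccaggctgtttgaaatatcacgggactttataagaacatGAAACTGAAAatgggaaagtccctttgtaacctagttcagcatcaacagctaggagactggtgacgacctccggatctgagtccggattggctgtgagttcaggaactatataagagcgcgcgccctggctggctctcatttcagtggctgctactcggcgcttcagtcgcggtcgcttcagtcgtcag
TTCNNNNGAA, searched on both strands, was in 2 of the 8 windows on the IL-13 side (25%), in 1 of the 7 on the IL-31 side (14.3%) and in 754 of all 11407 (6.61%). TTCNNNGAA, the spacing of other STATs, was in 0 of the 8 and 0 of the 7, and in 8.2% of all windows. GAAANNGAAA was in 0 of the 8, in 1 of the 7 and in 3.64% of all. Read for the MEF2 box as well, 0 of the 8 and 1 of the 7 held it, and 2.38% of all. That 1 window was of Lsmem1, which also held the TTCNNNNGAA match of the IL-31 side. A CArG box was in 0 of the 8 and 0 of the 7. With so few windows these shares describe the letters only.

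Receptor chains of the injected cytokines did not separate the groups. Il4ra stood at 5.29, 4.19, 5.71, 4.57 and 4.53 in IL-13 and at 5.07, 4.65, 5.07, 5.58 and 4.44 in IL-31, with a difference of -0.1 ± 0.29. Il13ra1 differed by 0.01 ± 0.15, Il2rg, the common gamma chain, by -0.33 ± 0.27, and Stat6 by 0.08 ± 0.08. Ranges of the groups overlapped for each of these genes. The decoy receptor Il13ra2 was low, at 0.45, -0.1, 0.62, 0.4 and 0.77 in IL-13 and at -0.1, -0.1, -0.91, 0.74 and 0.09 in IL-31, and its difference of 0.48 ± 0.31 was within the overlap of the groups (limma adjusted p = 0.673).

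Il31ra was below the level needed for a test, with a log2 CPM of at least 0 in 4 of the 10 libraries and means of -0.06 in IL-13 and -0.03 in IL-31. Osmr, its partner chain, differed by -0.1 ± 0.17. Il6st (gp130), the signalling chain of related cytokines, was at 7.61, 7.44, 7.41, 7.63 and 7.56 in IL-13 and at 7.86, 7.82, 7.5, 7.7 and 7.89 in IL-31. Its difference of -0.22 ± 0.08 did not pass (limma adjusted p = 0.36), and IL-31 replicate 3 fell among the IL-13 values. Of 9 receptor chains and kinases of IL-13 and IL-4, 5 had the higher mean in IL-31, with a median of -0.04. Jak3, the kinase bound by the common gamma chain, was the one without overlap (-0.47 ± 0.15). Over all tested genes 0.673% were without overlap on the IL-31 side. Of 11 genes of the gp130 family, 9 had the higher mean in IL-31 (median -0.15, or -0.05 without IL-13 replicate 4), and of 21 Stat3 targets 12 had the higher mean in IL-13 (median 0.02).

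Targets of Stat6 and alternative activation were mixed, 10 of 19 higher in IL-13 and 9 higher in IL-31, with a median of 0.03. At an unadjusted p under 0.05, 4 were on the IL-13 side, against 3.15% of all tested genes, and 1 on the IL-31 side. Retnla, a protein secreted by macrophages in the alternative state, stood at 0.98, 1.01, -0.24, 5.24 and 1.79 in IL-13 and at -0.1, 0.47, -2.11, -1.02 and -0.23 in IL-31. IL-13 replicate 4 was far above the rest, one IL-13 library lay within the IL-31 range, and the difference was 2.36 ± 0.87 (limma adjusted p = 0.355). Retnla also counted as muscle-linked, at r = 0.72 in the PBS and IL-4 libraries.

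Chil3, a chitinase-like product of the same macrophage state, was at 3.56, 0.56, 1.11, 4.11 and 1.45 in IL-13 and at 0.78, -1.81, 1.67, -0.27 and -0.35 in IL-31, with overlap (2.16 ± 0.77). Arg1, arginase, was at 5.35, 4.3, 5.46, 4.06 and 3.29 in IL-13 and at 3.63, 3.68, 3.22, 3.03 and 3.14 in IL-31. Only IL-13 replicate 5 fell within the IL-31 range, and the difference of 1.15 ± 0.36 did not pass (limma adjusted p = 0.265). Ccl24, an eosinophil chemoattractant, leaned the other way (-0.93 ± 0.38).

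Vessel genes leaned to IL-31 throughout the list. All 29 tested endothelial and lymphatic genes had the higher mean in IL-31, 18 at an unadjusted p under 0.05 (6.92% of all tested genes) and 5 without overlap (0.673% of all), with a median of -0.47. Their summed level was 251 to 409 CPM in IL-13 and 394 to 511 CPM in IL-31. Without IL-31 replicate 3 the median was -0.53 and 3 were called, beside 2.43% of all genes called on that side. With the muscle score as a covariate the median was -0.34.

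Tek, the angiopoietin receptor, stood at 2.55, 2.83, 2.08, 2.13 and 2.92 in IL-13 and at 3.43, 3.36, 3.24, 3.2 and 3.43 in IL-31. No values overlapped, and the difference of -0.83 ± 0.18 was called without IL-31 replicate 3 (limma adjusted p = 0.048). Egfl7, a vessel-derived matrix protein, was at 4.15, 4.18, 3.92, 3.83 and 4.22 in IL-13 and at 4.51, 4.57, 4.35, 4.63 and 4.6 in IL-31. It too was without overlap (-0.47 ± 0.1; 0.0255 without IL-31 replicate 3). Flt1, a VEGF receptor, was the other gene called in that fit (limma adjusted p = 0.0409), while Pecam1, an endothelial adhesion protein, differed by -0.48 ± 0.15 and Vwf, von Willebrand factor, by -0.6 ± 0.18, with overlap.

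Of 12 pericyte and smooth muscle genes, 8 had the higher mean in IL-31, 4 at an unadjusted p under 0.05 (6.92% of all). Their median of -0.15 ran from -0.30 to 0.01 as single libraries were left out. Rgs5, a pericyte regulator of G protein signalling, was at 5.5, 5.66, 4.94, 5.3 and 5.68 in IL-13 and at 6.2, 6.1, 6.03, 5.86 and 5.73 in IL-31, without overlap. Kcnj8, a potassium channel subunit of pericytes, also did not overlap (-0.95 ± 0.26). Over all tested genes 0.673% were without overlap on that side. Desmin stands on this list as well as on the muscle list.

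Antigen presentation and complement genes were likewise on the IL-31 side. Of 20 dendritic and Langerhans cell genes 18 had the higher mean in IL-31, 7 at an unadjusted p under 0.05 (6.92% of all). Their median was -0.40, or -0.20 with the muscle score as a covariate. The list's score was -0.23 to -0.09 in IL-13 and 0.01 to 0.32 in IL-31, without overlap. H2-Ab1, an MHC class II beta chain, was at 7.17, 7.39, 7.17, 7.66 and 7.57 in IL-13 and at 7.92, 7.8, 7.48, 7.91 and 7.83 in IL-31. Only IL-31 replicate 3 lay among the IL-13 values, and without it the difference was -0.47 (limma adjusted p = 0.0412). H2-Aa (adjusted p = 0.0452) and H2-Eb1 (0.0194) were called in the same limma fit, and Cd74, the invariant chain, was not (0.0807). Cd207, langerin, differed by -0.63 ± 0.18 and was itself muscle-linked by the rule used, at r = 0.74.

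Of 19 complement genes, 18 had the higher mean in IL-31, 13 at an unadjusted p under 0.05 (6.92% of all tested genes). Their median was -0.58. The list's scores overlapped, at -0.76 to 0.125 in IL-13 and -0.14 to 0.58 in IL-31. C3, the central component, was at 6.09, 5.73, 5.25, 5.8 and 5.57 in IL-13 and at 6.53, 6.51, 5.21, 6.6 and 7.01 in IL-31. IL-31 replicate 3 was the lowest of the 10 libraries, and the others of its group lay above all IL-13 libraries. Serping1, the C1 inhibitor, differed by -0.68 ± 0.17 and was called without that library (limma adjusted p = 0.0276).

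**Figure D4:**
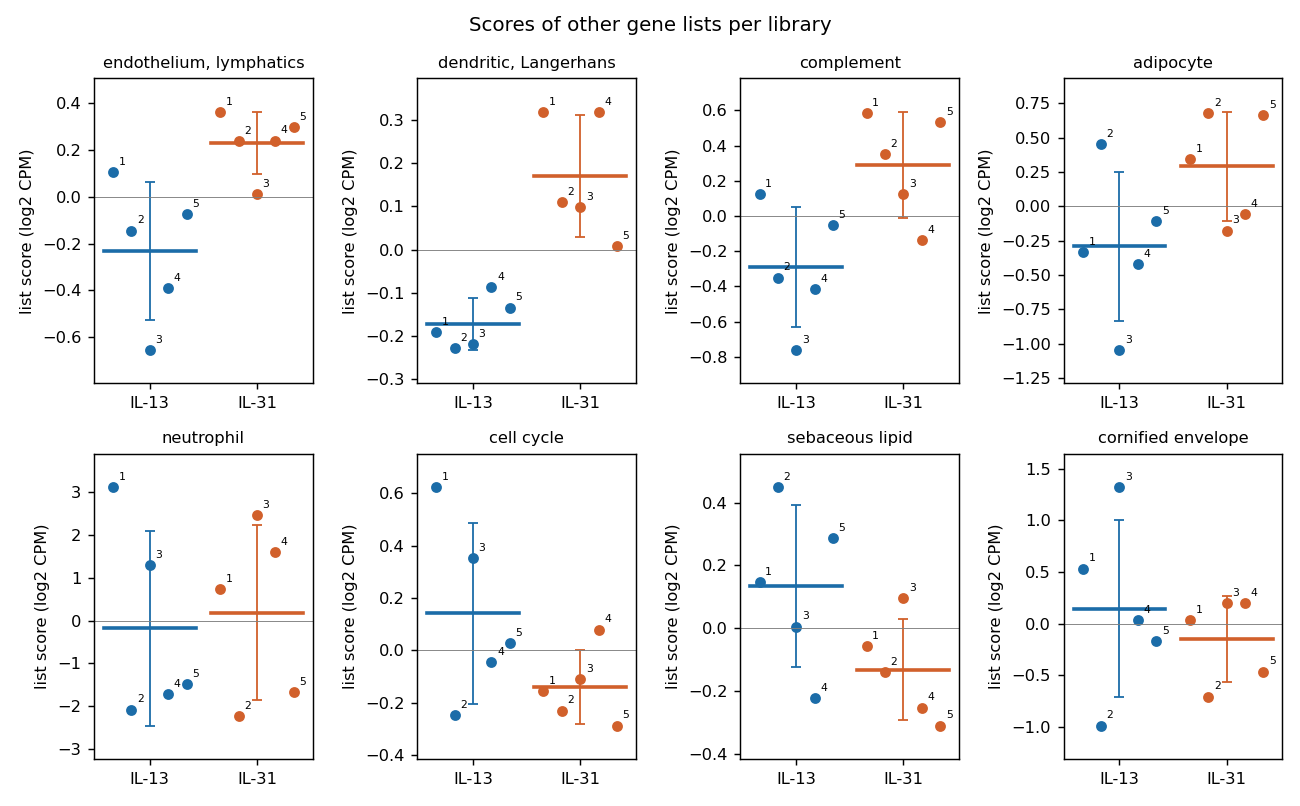
Scores of 8 further lists for each library, as the mean over the list's tested genes of log2 CPM centred per gene; numbers are replicate numbers, lines the group means and bars the SD of 5 libraries. The dendritic and Langerhans scores do not overlap between the groups, and the neutrophil scores spread over more than 4 log2 units within each group.

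Of 28 macrophage genes 27 had the higher mean in IL-31, 6 at an unadjusted p under 0.05 (6.92% of all tested genes). Their median was -0.44, but their scores overlapped, at -0.74 to 0.55 in IL-13 and -0.11 to 0.68 in IL-31. All 11 eosinophil, mast cell and basophil genes were on the IL-31 side, 4 at that level, with a median of -0.34 (-0.21 with the muscle covariate); Mcpt4, a mast cell protease, differed by -0.41 ± 0.14 and Cma1, mast cell chymase, by -0.39 ± 0.13. Interferon-stimulated genes had a median of -0.43, with 35 of 38 higher in IL-31 and 4 at an unadjusted p under 0.05, a share near the 6.92% of all tested genes. That median was -0.16 without IL-31 replicate 1, -0.74 without IL-13 replicate 1 and -1.09 with the muscle covariate. Ifi27l2a, an interferon-induced gene, differed by -1.02 ± 0.25 and was called without IL-31 replicate 3 (limma adjusted p = 0.0306).

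Neutrophil transcripts varied more within the groups than between them. S100a8, a calcium-binding protein of neutrophils and stressed keratinocytes, stood at 6.76, 1.22, 5.59, -0.07 and 0.7 in IL-13 and at 4.05, -1.27, 6.23, 4.81 and 0.7 in IL-31. High values occurred in IL-13 replicates 1 and 3 and in IL-31 replicates 1, 3 and 4. Of 17 neutrophil genes 0 had an unadjusted p under 0.05; the median of -0.41 with all libraries was 0.28 without IL-31 replicate 3. Their summed level ran from 85.2 to 1357 CPM in IL-13 and from 101 to 1110 CPM in IL-31, and Retnlg was at the lowest value of the table in 2 libraries. Red blood cell genes were highest in IL-31 replicate 3: the list summed to 67.3 to 1818 CPM in IL-31, against 88.6 to 252 CPM in IL-13, and its median moved from -0.68 to 0.01 without that library. IL-31 replicate 3 thus combined low muscle, high neutrophil and high red blood cell levels, and which of these moved the other values was not tested.

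Epidermal genes did not separate the groups. Of 62 cornified envelope and barrier genes, 43 had the higher mean in IL-13, 2 at an unadjusted p under 0.05 (3.15% of all tested genes). Their median was 0.06 (-0.08 to 0.28 as single libraries were left out). Lor, loricrin of the cornified envelope, was at 13.05, 12.68, 13.31, 13.25 and 13.36 in IL-13 and at 12.93, 12.96, 13.49, 12.99 and 13.12 in IL-31. The ranges overlapped, with the lowest library in IL-13 and the highest in IL-31. Of 14 basal keratinocyte genes 9 had the higher mean in IL-13, 0 at that level. Krt16, a keratin of wounded and hyperproliferative epidermis, was at 10.61, 3.35, 11.86, 5.37 and 4.44 in IL-13 and at 6.97, 3.28, 4.65, 9.24 and 3.1 in IL-31. The same 2 IL-13 libraries that were high in S100a8 had the highest Krt16, and the difference of 1.68 ± 1.72 carried a standard error larger than itself.

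Proliferation genes leaned to IL-13. Of 33 cell cycle genes 29 had the higher mean in IL-13, 12 at an unadjusted p under 0.05 (3.15% of all tested genes were on that side at this level), with a median of 0.31, which was 0.32 without IL-31 replicate 3 and 0.17 without IL-13 replicate 1. None passed with all libraries or without IL-31 replicate 3, and 7 were called with the neutrophil covariate (0.122% of all tested genes on that side). Mki67, the proliferation marker Ki-67, was at 7.71, 6.77, 7.29, 6.95 and 7.02 in IL-13 and at 6.69, 6.62, 6.85, 7.01 and 6.61 in IL-31. IL-13 replicates 1 and 3 were highest, as they were for Krt16, and the groups overlapped. Cenpf, a kinetochore protein, was the one member without overlap, at 5.52, 4.9, 4.99, 4.92 and 5.12 in IL-13 and at 4.61, 4.76, 4.73, 4.78 and 4.58 in IL-31 (0.39 ± 0.12). Over all tested genes 0.583% were without overlap on the IL-13 side. With the muscle score as a covariate the median of the cell cycle list was 0.01.

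Among lipid genes, 18 of 20 sebaceous gland genes had the higher mean in IL-13, 2 at an unadjusted p under 0.05. Their median was 0.29 (0.15 without IL-13 replicate 2). Of 20 cholesterol synthesis genes, 18 had the higher mean in IL-13, 3 at that level. Their median was 0.14 (0.02 with the muscle covariate). Over all tested genes 3.15% were on the IL-13 side at that level. Scd1, a fatty acid desaturase of sebaceous glands, differed by 0.28 ± 0.2, with overlap. Of 19 adipocyte genes, 16 had the higher mean in IL-31, 9 at an unadjusted p under 0.05 (6.92% of all tested genes). Their median was -0.64 (-0.43 without IL-13 replicate 3). Car3, a carbonic anhydrase of fat and muscle, was at 6.29, 7.81, 5.94, 6.93 and 6.67 in IL-13 and at 8.18, 8.44, 6.76, 7.94 and 8.31 in IL-31. It was called without IL-31 replicate 3 (limma adjusted p = 0.0266), and with the muscle score as a covariate the adipocyte median was -0.01.

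Neurotrophin and guidance genes were near the centre, and axonal transcripts lay on the IL-31 side. Of 51 neurotrophin, GDNF family and axon guidance genes, 22 had the higher mean in IL-13 and 29 in IL-31. Their median was -0.04 (0.02 after quantile normalization). At an unadjusted p under 0.05, 4 were on the IL-13 side (3.15% of all tested genes) and 5 on the IL-31 side (6.92% of all). Sema3f, a secreted axon-repelling semaphorin, was at 7.34, 7.24, 7.65, 7.47 and 7.3 in IL-13 and at 6.98, 7.17, 7.2, 7.22 and 7.04 in IL-31. No values overlapped, though the difference of 0.28 ± 0.08 did not pass (limma adjusted p = 0.248). Efnb2, an ephrin of arteries and guidance, was the other member without overlap (0.23 ± 0.08). Over all tested genes 0.583% were without overlap on the IL-13 side. Of 8 tested axonal transcripts, which axons may carry into the skin, 7 had the higher mean in IL-31, 4 at an unadjusted p under 0.05 (6.92% of all tested genes). Their median of -0.29 was -0.40 without IL-31 replicate 3 and -0.105 with the muscle covariate. Among them Map1b, a microtubule-associated protein, differed by -0.42 ± 0.17 and Uchl1, a neuronal ubiquitin hydrolase, by -1.11 ± 0.38; Uchl1 was muscle-linked at r = 0.79.

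Of 14 itch mediators and alarmins, 10 had the higher mean in IL-13 and 4 in IL-31. Their median was 0.06 (-0.05 to 0.10 as single libraries were left out). Tacr1, higher in IL-31, was the only one at an unadjusted p under 0.05 (6.92% of all tested genes on that side). Lists with medians within 0.05 of 0 were cartilage, clock, melanocyte, immediate early, heat shock, Wnt, Stat3 target, Stat6 target, receptor, and neurotrophin and guidance genes, for which no direction is given. The plot of list medians shows these values with and without IL-31 replicate 3.

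**Figure D5:**
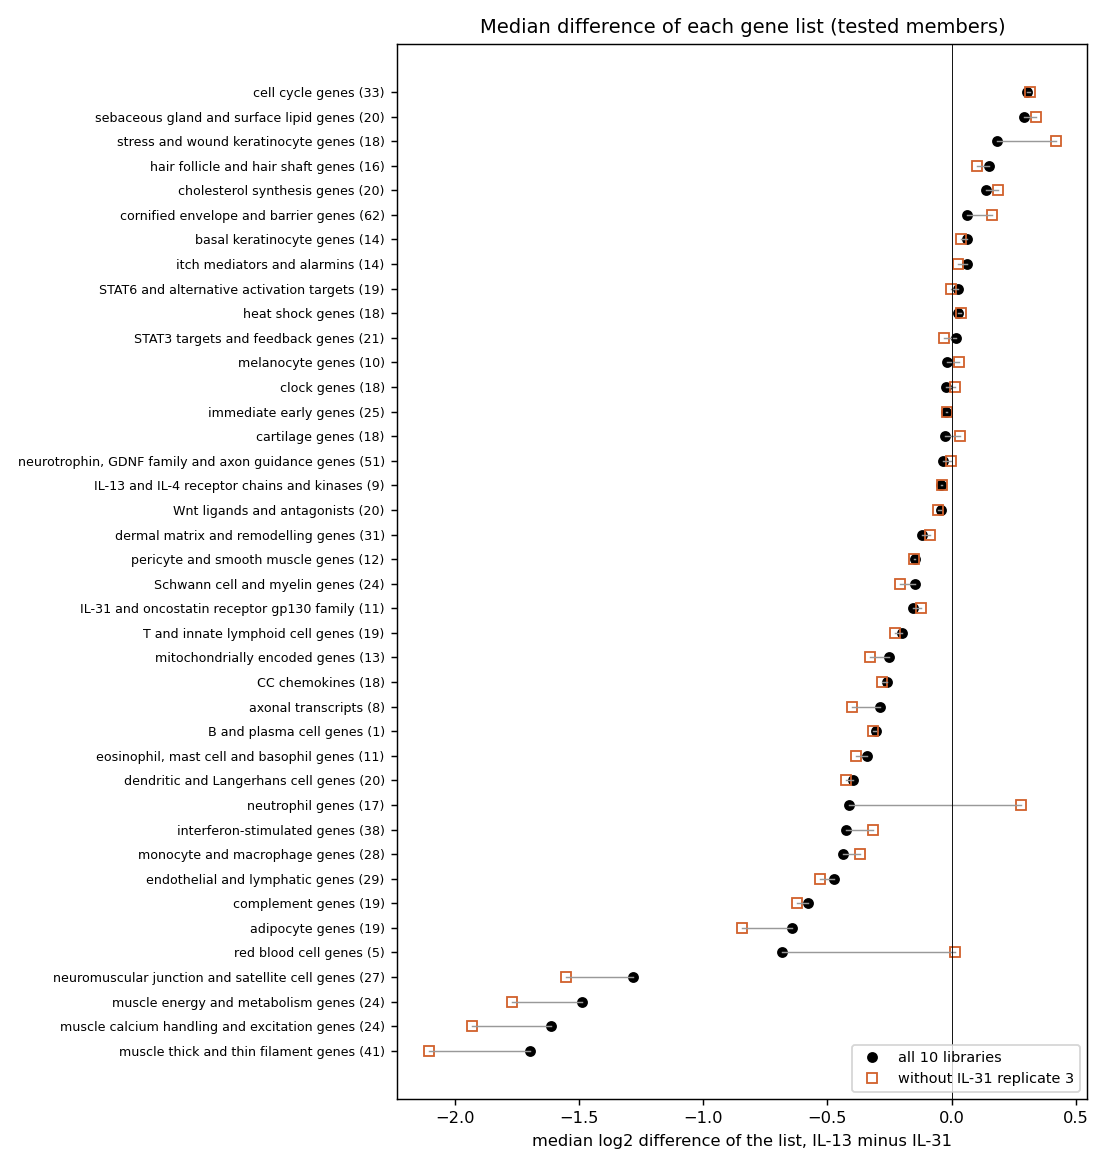
Median log2 difference, IL-13 minus IL-31, of the tested members of each of 40 gene lists (number of members in brackets), with all 10 libraries (black) and without IL-31 replicate 3 (open squares). The muscle lists lie farthest to the left and move further left without that library, while the neutrophil and red blood cell lists move to the right of 0.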

How the data were processed

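Libraries came from total RNA with the NEBNext Ultra II kit, per the labels' protocols. The values analysed are log2 CPM for 16669 genes, as deposited by the authors in a single table. The submitters' processing notes name GRCm38 and edgeR, with no version; aligner, read counter and annotation release: not given in the sources used here. Every library shared a lowest value of -2.684, which corresponds to an added 0.1556 CPM and understates fold changes of low genes. In the 10 libraries 79.8 to 84.3% of low values were whole multiples of what 1 read is worth, within 0.02 reads; the rest were not, so no count test was run.

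Gene symbols and positions came from GENCODE M21 for GRCm38. limma 3.58.1 in R 4.3.3 was run on the values as deposited (lmFit, eBayes with trend, two-sided), on genes reaching a log2 CPM of 0 in 5 or more of the 10 libraries, with Benjamini-Hochberg adjustment over all 15601 tested genes and a threshold of 0.05. Python 3.11.15, numpy 2.4.6, pandas 2.3.3 and matplotlib 3.10.9 made the summaries and figures. The fit was tested on simulated data in which each gene was drawn independently. Genes that move together by library, as the muscle genes did here, were not simulated. A list score is the mean over tested members of log2 CPM centred per gene over the 10 libraries.

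The members and the 40 gene lists were chosen with earlier results of these data known. Named by rule were up to 10 genes per direction outside muscle whose groups did not overlap (called genes first, then smallest unadjusted p, predicted genes left out), the receptor genes, and up to 3 members of each list. Chosen after their values were seen were Dnaja4, Hspb8, Lrrc2, Sln, Myf6, Retnla, Chil3, Arg1, Ccl24, Tek, Egfl7, Flt1, Serping1, Ifi27l2a, S100a8, Rgs5, Kcnj8, Cenpf, H2-Eb1, Cd207, Jak3, Uchl1 and Efnb2, and the promoters shown. Il4, Il13 and Il31 were not analysed here, and some genes that the rule names are not reported here. Alternatives were other filters, a pseudocount, scalings, variance options, a replicate block, score covariates and leaving out each library.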

Additional observations from a re-analysis of the deposited data

Results flagged for a closer look

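Of 240 sets of 5 values, 26 had 1 library far from the other 4 (a gap above 0.71 of the set's range). Chance gives this for about 1 set in 20 when sets are independent. These sets share libraries, and list scores share genes with each other, so that rate is no reference for the count. In 16 of them that library was IL-31 replicate 3. It was the lowest of its group for Myh1 (9.56, the others 11.28 to 11.97), Atp2a1 (8.19), Ryr1 (6.06), Mb (7.45), Des (6.40) and Lrrc2 (1.56), and for the scores of filament (-0.65), calcium-handling (-0.55), energy (-0.49), junction (-0.57), mitochondrially encoded (-0.16) and all 4 muscle lists together (-0.58). It was also lowest for Cd74 (8.12), H2-Ab1 (7.48) and C3 (5.21, the others 6.51 to 7.01), and highest for Stat6 (7.0, the others 6.68 to 6.72).

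IL-31 replicate 4 was lowest for Col3a1 (9.70, the others 10.80 to 10.93) and highest for the itch mediator (0.23) and T and innate lymphoid (0.40) scores. IL-31 replicate 2 was lowest for the eosinophil, mast cell and basophil score (0.016), and IL-13 replicate 1 was highest for it in its group (0.32). IL-13 replicate 2 was highest for mt-Co1 (13.45). IL-13 replicate 3 was lowest for Zfp711 (2.74) and Kcnj8 (0.95), and IL-13 replicate 4 was highest for Gpt (7.10) and lowest for the cholesterol synthesis score (-0.13).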

How the results depend on the processing

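With all 10 libraries 0 genes passed in limma under other filters, a pseudocount of 1, quantile normalization, median centring, no trend, robust variances, the PBS and IL-4 libraries in the fit, or the muscle covariate; these settings gave 1139 to 1737 genes at an unadjusted p under 0.05. Leaving out single libraries gave 0 to 390 calls, 0 to 11 of them higher in IL-13, 0 to 379 higher in IL-31 and 0 to 119 outside skeletal muscle; each upper value is the fit without IL-31 replicate 3, and the cause was not tested. The neutrophil covariate gave 316 calls, 19 higher in IL-13, 297 higher in IL-31 and 95 outside muscle. The replicate block gave 276 calls, 4 higher in IL-13, 272 higher in IL-31 and 96 outside muscle. The labels do not say whether replicate numbers pair the samples. Deviations of same-numbered samples correlated at 0.16, 0.44, 0.29, -0.13 and 0.18, and 1 of 5 IL-13 libraries correlated best with its own number. These correlations cannot decide whether the samples are paired.

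For the 79 genes followed by value, 1528 of 1657 values under alternatives kept their direction and their side of the threshold, 99 (44 genes) were called under an alternative, and 30 changed sign. With the muscle covariate the differences were Il13ra1 -0.35, Stat6 -0.13, Atp2a1 0.053, Mb 0.001, mt-Co1 0.17, Lor -0.38, Krt16 -0.67, Car3 0.10, C3 0.006, Map1b 0.09 and Uchl1 0.12, and with the neutrophil covariate S100a8 0.44. Atp2a1 and Mb are part of the muscle score, and S100a8 is part of the neutrophil score. Leaving out single libraries moved Il13ra1 from -0.10 to 0.15, Il4ra from -0.32 to 0.064, Lor from -0.024 to 0.15, Osmr from -0.17 to 0.02 and S100a8 from -1.11 to 0.77. List medians kept their sign under both scalings and in each of the 10 leave-one-out fits for muscle (-1.88 to -1.40), endothelium (-0.56 to -0.36), complement (-0.71 to -0.47), adipocytes (-0.90 to -0.43), dendritic cells (-0.43 to -0.34), sebaceous glands (0.15 to 0.39) and cell cycle (0.17 to 0.44). Genes under 0.126 to 0.233 CPM were beyond the depth of these libraries.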

Other observations

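Keratinocyte stress genes were spread too widely within the groups to compare: of 18 tested, 12 had the higher mean in IL-13 and 0 had an unadjusted p under 0.05, and the list summed to 523 to 11638 CPM in IL-13 and 437 to 2082 CPM in IL-31. Krt6a, a keratin of wounded epidermis, was at 10.81, 7.3, 11.77, 6.44 and 6.73 in IL-13 replicates 1 to 5 and at 7.77, 6.3, 6.49, 8.97 and 6.26 in IL-31. Its high libraries were those high in Krt16. Krt14, of basal keratinocytes, differed by 0.38 ± 0.23 with overlap. Of 20 Wnt ligands and antagonists 3 had an unadjusted p under 0.05 on the IL-13 side (3.15% of all tested genes). On the IL-31 side 1 did (6.92% of all). For 1 member, higher in IL-13, the groups did not overlap (0.583% of all). Wnt4, an epidermal Wnt ligand, differed by 0.34 ± 0.14.

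Dermal matrix genes had the higher mean in IL-31 in 21 of 31 cases, 1 at an unadjusted p under 0.05, with a median of -0.12 (-0.27 without IL-13 replicate 1, -0.04 without IL-13 replicate 2). Col3a1, a fibrillar collagen, was at 10.5, 9.59, 9.76, 10.31 and 10.53 in IL-13 and at 10.87, 10.88, 10.8, 9.7 and 10.93 in IL-31, where replicate 4 was the low one. Chemokines, a list of CC members that also holds Cxcl12, Cxcl14 and Cxcl16, were on the IL-31 side in 16 of 18 cases. Of these, 2 were at that level, a share near the 6.92% of all tested genes. Their median of -0.26 was -0.15 without IL-31 replicate 4 and -0.14 after quantile normalization. The lymphatic chemokine Ccl21a, counted on the endothelial and lymphatic list, differed by -0.64 ± 0.18, and reads of its near-identical copies may be divided among them. Schwann cell and myelin genes had the higher mean in IL-31 in 15 of 24 cases, 2 at an unadjusted p under 0.05, with a median of -0.15 that was -0.03 without IL-13 replicate 3, -0.06 after quantile normalization and 0.27 with the muscle covariate. T and innate lymphoid cell genes did so in 15 of 19, 1 at that level, with a median of -0.20 (-0.32 without IL-13 replicate 4, -0.125 without IL-13 replicate 2 and -0.11 after quantile normalization). Of 39 listed hair follicle genes 16 were tested. Of these, 10 had the higher mean in IL-13, 3 at that level, and 6 in IL-31, 2 at that level. Over all tested genes, 3.15% were on the IL-13 side at that level and 6.92% on the IL-31 side. Gata3 and Krt79, described above, were the 2 without overlap (0.583% of all tested genes on the IL-13 side). Only Gata3 was called higher in IL-13 without IL-31 replicate 3. Gata3 is also the 1 member of the T and innate lymphoid list on the IL-13 side at that level. The hair follicle median of 0.15 was 0.03 without IL-13 replicate 2 and 0.24 without IL-31 replicate 2. None of these genes passed the adjusted threshold in limma with all 10 libraries.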
